A study of Mus musculus with 6 samples.

Results

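Matrix glycoproteins, elastic fibre proteins and laminins are the non-collagen structural and adhesive proteins that fibroblasts lay down around themselves. Their transcripts were examined in RNA sequencing data from cultured neonatal rat heart cells. The list holds 40 gene symbols, set by name and not by measured values, though with earlier results of these data known. Of the 40, 39 were found among the 33682 rows of the gene table, each on 1 row. The symbol not found was Mfap4. Levels are given as FPKM, fragments per kilobase of gene, scaled by a divisor close to the reads of the library, so they account for gene length. Their total was not the same in every library, at 521177 to 581747 FPKM.

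The cells had been kept in conditioned medium from bone marrow-derived mast cells (BMMCs) that had been treated with TNF-a, an inflammatory cytokine. In 3 samples the BMMCs were wild type (WT medium) and in 3 they were ALOX5-/- (ALOX5-/- medium), lacking the 5-lipoxygenase that starts leukotriene synthesis. The genotype of the heart cells themselves is labelled WT in all 6 samples, and every medium came from TNF-a-treated mast cells, so the groups differ in the donor of the medium. No sample without mast cell medium was analysed here, and leukotrienes were not measured here. The sample labels call the cells cardiomyocytes and the species mouse, while the series design names a fibroblast culture and the gene identifiers are those of rat.

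Elastic fibres are built as a scaffold of fibrillin microfibrils on which elastin is deposited and crosslinked, with fibulins, EMILINs and microfibril-associated proteins as assembly factors. Fibronectin forms the provisional matrix on which other fibres are laid, and cells grip it through integrins. Laminins are trimers of an alpha, a beta and a gamma chain that form the basement membrane sheet, which nidogens tie to type IV collagen. Matricellular proteins such as periostin, tenascin C, SPARC and osteopontin add little strength but tune adhesion and growth factor signals, and in the injured heart they are known as products of activated fibroblasts.

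The libraries held 13284088 to 15766187 reads, with the 3 ALOX5-/- medium libraries each deeper than any WT medium library. The summed level of the cardiomyocyte marker list was low beside that of the fibroblast list in every library. Only Myl2, the ventricular myosin light chain, was at 0 in all 6. The 12 cardiomyocyte markers summed to 31.9 to 56.4 FPKM in WT medium and 105 to 132 FPKM in ALOX5-/- medium. Of the 12, 8 were tested, 4 rose (Tnnt2, Actc1, Pln and Myh7) and 0 fell, beside calls for 20.7% of all tested genes. Tnnt2, the largest part of each sum, rose from 23.0 ± 6.92 to 79.9 ± 10.6 FPKM (mean ± SD of 3 samples). The part of these rises in the changes described here was not tested. The 12 fibroblast markers summed to 9956 to 11048 and 10305 to 12157 FPKM, but their sum hides changes in both directions, since 4 rose and 3 fell. These calls are 58.3% of the 12, beside 20.7% of all tested genes. Col3a1, Vim, Pdgfrb and Tcf21 rose, while Dcn fell from 2219 ± 711 to 134 ± 66.3 FPKM, Lum from 150.4 ± 46.9 to 35.7 ± 16.3 FPKM and Pdgfra from 80.6 ± 4.58 to 37.6 ± 4.36 FPKM (mean ± SD of 3 samples). The median of the 12 was 218 to 499 FPKM in WT medium and 88.3 to 141 FPKM in ALOX5-/- medium, and the part of these markers in the changes described here was not tested. By these levels the RNA was that of a culture rich in fibroblast transcripts, against the cell type in the sample labels. WT medium replicate 3 and ALOX5-/- medium replicate 2 stood apart from the other samples of their groups for many of the genes described here, and results that turn on either are given with and without it. The labels do not say that replicates were separate cultures, so the p-values reflect variation among these 6 samples alone, possibly technical.

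Fibronectin, fibrillin 1, EMILIN 1, fibulin 1, the laminin alpha 5 chain and SMOC2 transcripts were lower in cells given ALOX5-/- medium, and those of SMOC1, the WARP protein gene Vwa1 and matrilin 2 were higher. The most abundant of all, Sparc, was at nearly the same mean in both groups. Of the 39 genes, 31 had a mean of at least 1 FPKM over the 6 samples and were tested. Of these, 3 rose and 6 fell (limma, Benjamini-Hochberg or BH-adjusted p under 0.05), which is 29.0% of the 31, where 20.7% of all 12341 tested genes were called, of which 1238 were higher and 1313 lower. The median log2 fold change, on the scale of log2(FPKM + 1) and always ALOX5-/- medium minus WT medium, was -0.043 for the 31 genes and -0.00082 for all tested genes. The groups did not overlap in 11 of the 31 genes, against 37.6% of all tested genes. In bulk RNA, fewer cells of a type and less RNA per cell cannot be told apart.

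**Figure D1:**
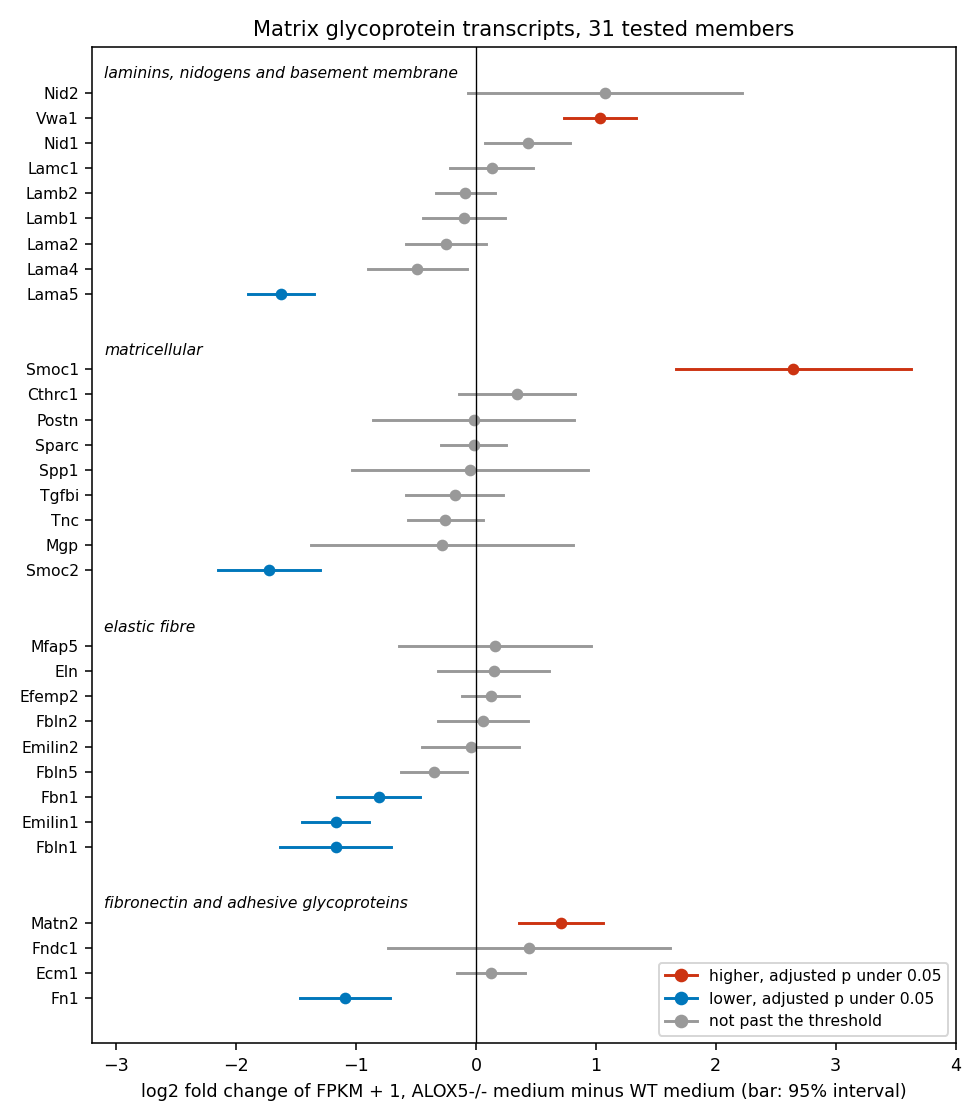
Log2 fold change of FPKM + 1 (horizontal axis) for the 31 tested genes, grouped by role; dots are estimates over 3 samples per group, bars 95% intervals, red and blue mark genes past the threshold. Smoc1 lies farthest to the right at 2.65 and Smoc2 farthest to the left at -1.73. The intervals of the genes past the threshold exclude 0, as do those of Fbln5, Nid1 and Lama4, which missed it. All other intervals include 0.

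Among the adhesive glycoproteins the fibronectin gene Fn1 fell. Fn1 (ENSRNOG00000014288, chromosome 9, 78900103 to 78969078 in the coordinates of the table, of a rat build the sources used here do not name) had 1135, 1281 and 1782 FPKM in WT medium and 598, 639 and 694 FPKM in ALOX5-/- medium. Every ALOX5-/- medium sample was below every WT medium sample, and the widest gap within a group was that of WT medium replicate 3. The means were 1399 ± 339 and 644 ± 48.2 FPKM (mean ± SD of 3 samples), a log2 fold change of -1.10 ± 0.17 (SE, limma, BH-adjusted p = 0.0017). Fn1 supplied 12.4% to 15.4% of the summed FPKM of all 39 genes in WT medium and 6.15% to 8.39% in ALOX5-/- medium, ranges that do not overlap. The table gives 1 value per gene, so the spliced forms of fibronectin could not be separated.

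Matrilin 2, an adaptor protein that links fibres of the matrix, rose from a low level. Matn2 (chromosome 7, 72985495 to 73207695) had 4.87, 4.23 and 6.61 FPKM in WT medium and 8.73, 8.37 and 10.2 FPKM in ALOX5-/- medium, without overlap. Its log2 fold change was 0.71 ± 0.16 (SE, limma, BH-adjusted p = 0.012), and the call was lost without ALOX5-/- medium replicate 3, where it was 0.63 with an adjusted p of 0.0506. Ecm1, a secreted glycoprotein of skin and other connective tissue, had 17.0 ± 2.06 and 18.6 ± 2.16 FPKM (mean ± SD of 3 samples) and did not pass the test, with a 95% interval of -0.16 to 0.41 for its log2 fold change. Fndc1, which carries fibronectin type III domains, ranged from 2.10 to 6.996 FPKM within the WT medium group alone and did not pass either. The integrin ligand Edil3 and the leucine-rich protein Ecm2 were under the abundance filter, at 11 and 10 reads and at 9 and 24 reads over the 3 libraries of the WT and ALOX5-/- medium groups. Vitronectin, Vtn, a plasma adhesion protein made mainly by liver, had 2 reads in WT medium and 0 in ALOX5-/- medium, where 3 reads in a library would be 0.109 to 0.135 FPKM.

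In the elastic fibre group 3 of 9 tested genes fell and 0 rose by limma, where 10.6% of all tested genes fell and 1238 of 12341 rose. Among 9 genes a count of 0 rises is near that background. The count of rises was also 0 at an unadjusted p under 0.05 and with limma voom, a weighted test on reads recovered from the FPKM values. With voom 1430 of all 12341 tested genes were higher and 1273 lower, and the share of all genes at an unadjusted p is not given here. The 3 that fell were Fbn1, the backbone of the microfibril, Emilin1, which sits between microfibril and elastin and restrains TGF-beta maturation, and Fbln1, a fibulin that binds fibronectin and elastin. Elastin itself did not pass the test, nor did the fibulin genes Fbln2, Fbln5 and Efemp2.

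Emilin1 (ENSRNOG00000008246, chromosome 6, 26821255 to 26828972) had 331, 297 and 339 FPKM in WT medium against 125, 141 and 165 FPKM in ALOX5-/- medium. Its groups were far apart compared with the spread inside them, at a log2 fold change of -1.17 ± 0.12 (SE, limma, BH-adjusted p = 2.2e-04). Its relative Emilin2 was at a lower level and showed no such gap, with 7.18 ± 0.930 and 7.05 ± 1.76 FPKM (mean ± SD of 3 samples). The ratio of Emilin1 to Emilin2 FPKM was 42.2 to 48.5 in the WT medium libraries and 17.8 to 24.8 in the ALOX5-/- medium libraries.

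Fbn1 (ENSRNOG00000007302, chromosome 3, 117569697 to 117766120) had 141, 159 and 206 FPKM in WT medium and 85.9, 109 and 89.9 FPKM in ALOX5-/- medium. The highest ALOX5-/- medium sample was below the lowest WT medium sample, and the log2 fold change was -0.81 ± 0.15 (SE, limma, BH-adjusted p = 0.0053). The second fibrillin gene, Fbn2, known from development, was under the abundance filter at 0.557 ± 0.0138 and 0.844 ± 0.181 FPKM (mean ± SD of 3 samples). Fbn1 thus exceeded Fbn2 by 249.9 to 381 times in WT medium and by 105 to 127 times in ALOX5-/- medium.

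Fbln1 (chromosome 7, 126096793 to 126176468) had 44.9, 43.0 and 33.1 FPKM in WT medium and 14.3, 23.4 and 15.1 FPKM in ALOX5-/- medium. Unlike Fn1 and Fbn1 it was lowest, not highest, in WT medium replicate 3 among the WT medium samples. The log2 fold change was -1.17 ± 0.20 (SE, limma, BH-adjusted p = 0.0047). Fbln2, the most abundant fibulin, had 404, 445 and 579 FPKM in WT medium and 408, 515 and 561 FPKM in ALOX5-/- medium, so its groups overlapped over nearly their whole range. The 95% interval of its log2 fold change was -0.32 to 0.43.

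Fbln5, which tethers elastin to microfibrils, was lower in each ALOX5-/- medium sample than in any WT medium sample, at 33.7, 36.5 and 35.2 FPKM against 25.5, 24.3 and 32.9 FPKM, but missed the threshold (log2 fold change -0.35, limma, BH-adjusted p = 0.077). Without ALOX5-/- medium replicate 3 the adjusted p was 0.015. Efemp2, a fibulin needed for elastin crosslinking, had 126 ± 4.12 and 138 ± 14.8 FPKM (mean ± SD of 3 samples), with an interval of -0.11 to 0.36. Elastin, Eln, had 19.7, 16.7 and 10.8 FPKM in WT medium and 16.5, 18.9 and 15.8 FPKM in ALOX5-/- medium, and its lowest and highest values were both in the WT medium group. Its log2 fold change was 0.15 with an interval of -0.31 to 0.61. Mfap5, a microfibril-associated glycoprotein, varied more inside the groups than between them, from 19.6 to 31.9 FPKM in WT medium and from 16.7 to 35.7 FPKM in ALOX5-/- medium. Efemp1 was under the abundance filter with 57 and 44 reads per group, and Mfap2 had 0 reads in WT medium and 5 in ALOX5-/- medium, all in replicate 1.

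**Figure D2:**
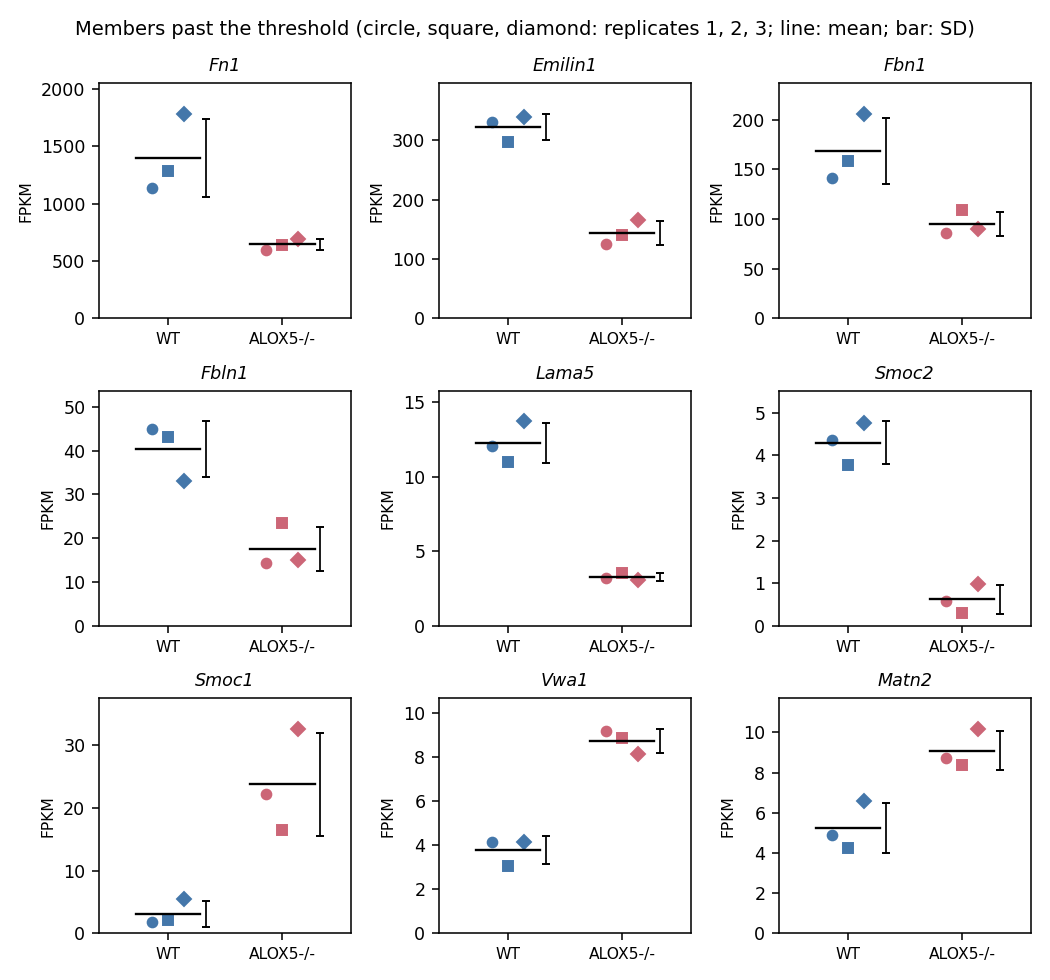
FPKM (vertical axis, from 0, own scale per panel) of the 9 genes past the threshold in the 3 WT and 3 ALOX5-/- medium samples; symbols are replicates, lines means, bars SD. In each panel the 2 groups are separate, and all but Fbln1 and Vwa1 have their highest WT medium value in replicate 3.

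The matricellular group held the most abundant transcripts and the most divided pair. Of 9 tested genes 1 rose, Smoc1, and 1 fell, Smoc2, a share of 22.2% that is near the 20.7% of all tested genes. Both encode calcium-binding relatives of SPARC that associate with basement membranes, and SMOC1 is known as a modulator of BMP signalling. Smoc1 (ENSRNOG00000005998, chromosome 6, 104718512 to 104877980) had 1.77, 2.12 and 5.42 FPKM in WT medium and 22.2, 16.5 and 32.6 FPKM in ALOX5-/- medium. All 3 ALOX5-/- medium values were above the WT medium values, and the mean rose 7.66-fold, from 3.11 ± 2.02 to 23.8 ± 8.17 FPKM (mean ± SD of 3 samples). The log2 fold change was 2.65 ± 0.40 (SE, limma, BH-adjusted p = 0.0064).

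Smoc2 (ENSRNOG00000014166, chromosome 1, 56242346 to 56374120) went the other way, with 4.35, 3.78 and 4.77 FPKM in WT medium and 0.592, 0.297 and 0.974 FPKM in ALOX5-/- medium. These were 561 reads in the WT medium libraries together and 89 in the ALOX5-/- medium libraries. The log2 fold change was -1.73 ± 0.19 (SE, limma, BH-adjusted p = 2.6e-04), and -2.91 with a pseudocount of 0.1, since adding 1 FPKM shrinks changes at low levels. The ratio of Smoc1 to Smoc2 FPKM was 0.408, 0.561 and 1.14 in WT medium and 37.6, 55.7 and 33.5 in ALOX5-/- medium, so Smoc2 was the more abundant of the pair in WT medium replicates 1 and 2 and Smoc1 in the other 4 samples.

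Sparc, a collagen-binding calcium protein, was the most abundant gene of the list, with 4315, 4319 and 4453 FPKM in WT medium and 4771, 3921 and 4252 FPKM in ALOX5-/- medium. The means of 4363 ± 78.4 and 4314 ± 428 FPKM (mean ± SD of 3 samples) differed by less than the spread, and the 95% interval of the log2 fold change was -0.29 to 0.25. Another SPARC relative, Sparcl1, known from vessels and brain, was under the abundance filter at 51 and 14 reads per group.

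Periostin, Postn, a marker of activated cardiac fibroblasts, had 1088, 841 and 1861 FPKM in WT medium and 1526, 865 and 1244 FPKM in ALOX5-/- medium. The values of each group spanned most of those of the other, and the interval of -0.85 to 0.82 for the log2 fold change includes changes of nearly 1 log2 unit in either direction. Spp1, osteopontin, had 30.7, 24.3 and 46.2 FPKM against 45.2, 18.7 and 36.6 FPKM, and Mgp, an inhibitor of calcification, ranged from 618 to 1144 and from 374 to 1024 FPKM. In both, the samples of a group again differed more than the group means. Tenascin C, Tnc, a glycoprotein of healing wounds, had 59.1, 71.0 and 74.4 FPKM in WT medium and 46.9, 62.2 and 62.3 FPKM in ALOX5-/- medium, and did not pass the test (log2 fold change -0.26, limma, BH-adjusted p = 0.25). Cthrc1, secreted by activated fibroblasts, had 97.1 ± 1.06 and 128 ± 39.4 FPKM (mean ± SD of 3 samples) and missed the threshold at an adjusted p of 0.31 (limma, Benjamini-Hochberg), but had an adjusted p of 0.019 and a log2 fold change of 0.58 without ALOX5-/- medium replicate 2, the sample with its lowest value. Tgfbi, a protein induced by TGF-beta, lay near the filter at 1.26 ± 0.296 and 0.992 ± 0.195 FPKM (mean ± SD of 3 samples).

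The laminin and basement membrane group had 1 rise and 1 fall among 9 tested genes, which is 22.2% and near the 20.7% of all tested genes. Lama5, the alpha chain typical of mature epithelial and vascular basement membranes, fell, while the beta and gamma chains with which it is assembled did not pass the test. Lama5 (ENSRNOG00000053691, chromosome 3, 175553045 to 175601127) had 12.0, 11.0 and 13.7 FPKM in WT medium and 3.21, 3.56 and 3.06 FPKM in ALOX5-/- medium. The group means differed by 3.74 times, with a log2 fold change of -1.63, a standard error of 0.12 and the smallest adjusted p of the list (limma, BH-adjusted p = 2.8e-05).

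Lama4, the laminin alpha chain common in mesenchyme and vessels, was the most abundant of the 3 alpha chains listed, with 59.9, 58.7 and 91.1 FPKM against 48.0, 43.1 and 55.2 FPKM. Its groups did not overlap, yet the difference missed the threshold (log2 fold change -0.49, limma, BH-adjusted p = 0.096). Lama2, the alpha chain of muscle laminin, had 7.45 ± 0.141 and 6.20 ± 1.43 FPKM (mean ± SD of 3 samples) and did not pass, but without ALOX5-/- medium replicate 2, its highest value of that group, it did (log2 fold change -0.41, limma, BH-adjusted p = 0.0475). Lama5 supplied 12.2% to 15.2% of the FPKM of these 3 alpha chains in WT medium and 4.82% to 6.53% in ALOX5-/- medium.

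The laminin gamma chain Lamc1 had 98.0, 96.5 and 129 FPKM in WT medium and 98.0, 136 and 121 FPKM in ALOX5-/- medium, with an interval of -0.21 to 0.48 for the log2 fold change. Lamb1, the main beta chain here, had 122 ± 26.7 and 113 ± 9.94 FPKM, and Lamb2 had 19.0 ± 1.96 and 17.8 ± 1.35 FPKM (mean ± SD of 3 samples), neither past the threshold. Summed over the chains, the 3 alpha transcripts came to 0.801 to 0.874 of Lamc1 in the WT medium libraries and 0.402 to 0.578 in the ALOX5-/- medium libraries. Lamb1 stood at 1.08 to 1.19 and 0.818 to 1.06 of Lamc1.

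The nidogens, which link laminin to collagen, were higher on average in ALOX5-/- medium but did not pass the test. Nid1 had 200.2, 202 and 295 FPKM in WT medium and 322, 283 and 322 FPKM in ALOX5-/- medium, where WT medium replicate 3 reached into the other group (log2 fold change 0.43, limma, BH-adjusted p = 0.089). Nid2 had 6.64, 6.77 and 16.2 FPKM against 22.0, 12.5 and 29.8 FPKM (log2 fold change 1.08, limma, BH-adjusted p = 0.18). Without WT medium replicate 3 both passed, Nid1 at 0.61 with an adjusted p of 0.0038 and Nid2 at 1.46 with an adjusted p of 0.044 (limma, Benjamini-Hochberg), and the count of rises in the whole list went from 3 to 5.

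Vwa1 encodes WARP, a von Willebrand factor A protein that binds perlecan in basement membranes. It had 4.17, 3.04 and 4.13 FPKM in WT medium and 9.18, 8.88 and 8.14 FPKM in ALOX5-/- medium (chromosome 5, 173216741 to 173222440). The samples of each group were close together and the groups did not overlap, at a log2 fold change of 1.03 ± 0.13 (SE, limma, BH-adjusted p = 7.2e-04). Nephronectin, Npnt, the ligand of integrin alpha 8 beta 1, was under the filter with 14 and 8 reads per group.

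**Figure D3:**
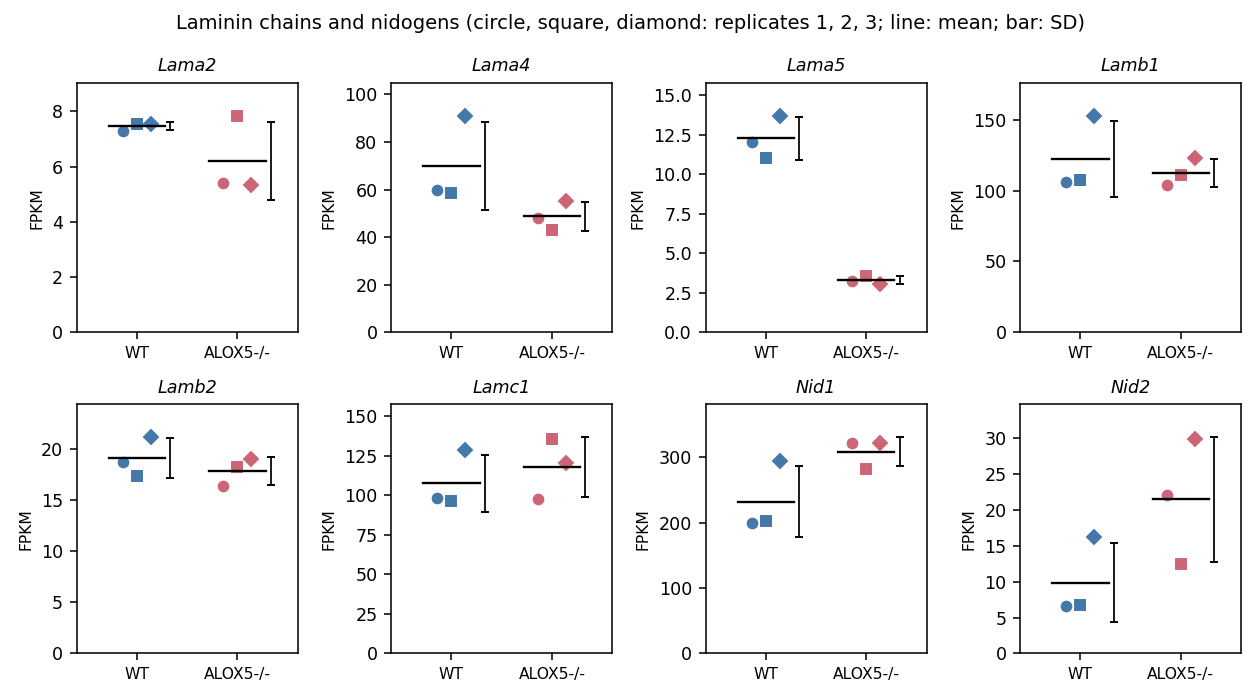
FPKM (vertical axis, from 0, own scale per panel) of 6 laminin chain genes and 2 nidogen genes per sample; symbols are replicates, lines means, bars SD. Lama5 is the laminin with the widest gap, from 12.2 to 3.28 FPKM on average, whereas Lamb1, Lamb2 and Lamc1 overlap between groups and Nid2 is scattered in both.

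The 8 genes under the abundance filter were Fbn2, Efemp1, Sparcl1, Npnt, Ecm2, Edil3, Mfap2 and Vtn. In a fit without the filter 0 of the 8 were called by limma with Benjamini-Hochberg adjustment, and 1, Sparcl1, had an unadjusted p under 0.05. No row carries the symbol Mfap4, the microfibril-associated glycoprotein, but 2 rows named LOC102553715 have it in their description. They lie outside the list and were looked at after their values were seen. The row at chromosome 10, 49000973 to 49003931, had 32, 14 and 453 reads in WT medium and 971, 119 and 846 reads in ALOX5-/- medium, that is 1.51, 0.708 and 20.8 FPKM against 42.6, 4.88 and 37.1 FPKM. WT medium replicate 3 was closer to the higher ALOX5-/- medium samples than to its own group, and LOC102553715 did not pass the test (log2 fold change 2.23 ± 1.43 SE, limma, BH-adjusted p = 0.37). The other row was listed at 0 in all 6 libraries, and reads from near-identical copies could not be told apart.

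Several transcripts shared an order of the samples inside the groups. Of the 31 tested genes 21 had their highest WT medium value in replicate 3, where 39.5% of all tested genes did. In 15 of them replicate 2 was lowest of the ALOX5-/- medium samples, where 34.5% of all tested genes were. Both held at once for 12 of the 31, against 14.1% of all tested genes. These 12 were Sparc, Postn, Mgp, Spp1, Smoc1, Smoc2, Mfap5, Nid1, Nid2, Lama4, Matn2 and Fndc1, so 6 of them were matricellular. In 7 genes, Postn, Mgp, Spp1, Mfap5, Nid1, Nid2 and Fndc1, WT medium replicate 3 and ALOX5-/- medium replicates 1 and 3 were all above the remaining 3 samples, which was seen for 4.93% of all tested genes. Such an order makes the groups overlap, so the overlap is part of the rule and not a further result. It limits what these 7 genes say on the effect of the medium. Of them, Nid1 and Nid2 passed the threshold without WT medium replicate 3 and with a replicate block. Among the 12, the groups of Smoc1, Smoc2, Matn2 and Lama4 did not overlap. Fndc1 shows the order plainly, with 2.20, 2.10 and 6.996 FPKM in WT medium and 6.18, 2.69 and 6.46 FPKM in ALOX5-/- medium. The surface marker Thy1, one of the 12 fibroblast markers, had the same order, noticed with its values in view, with 31.4, 22.1 and 70.4 FPKM against 96.4, 32.7 and 91.6 FPKM. The cause of this order was not tested.

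**Figure D4:**
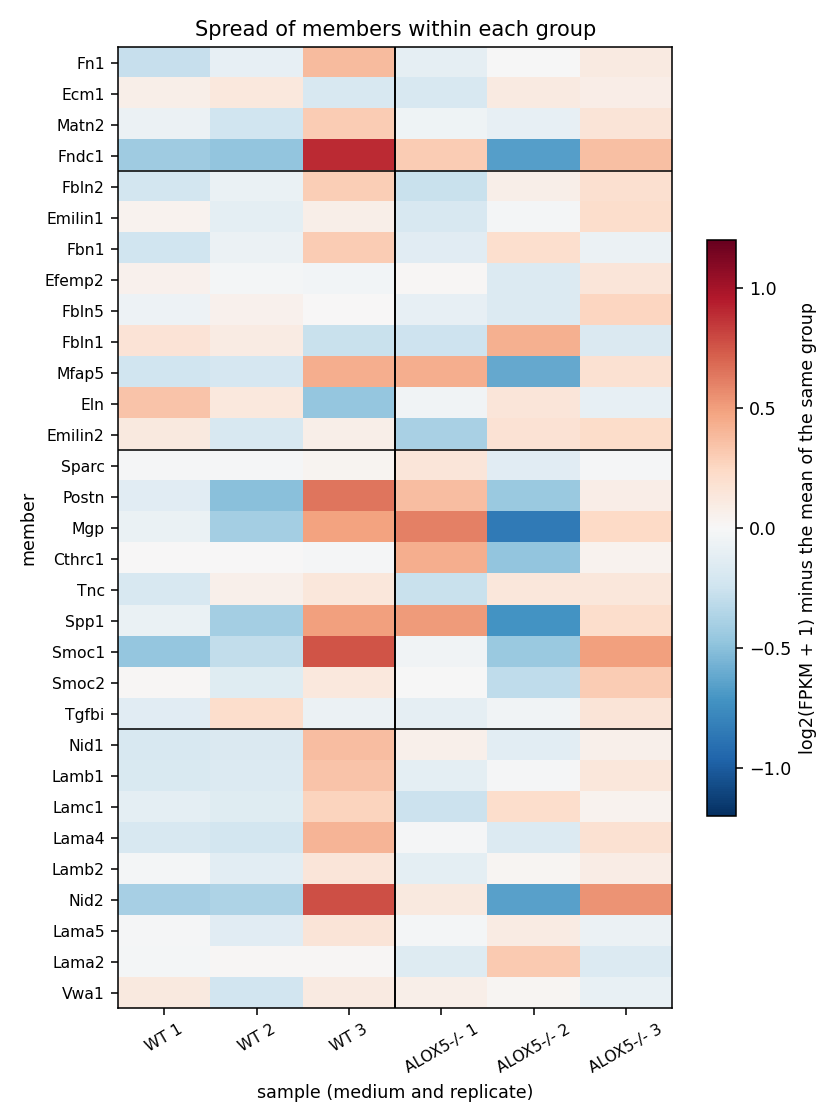
Deviation of log2(FPKM + 1) from the mean of the sample's own group (colour) for the 31 tested genes (rows, by role) in 6 samples (columns). Red in WT medium replicate 3 and blue in ALOX5-/- medium replicate 2 recur in Postn, Mgp, Spp1, Mfap5, Nid2 and Fndc1, while Sparc and Efemp2 are pale in all samples.

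The domain names in the table's description field gave a partial view of what the genes share in structure. Some genes had no domain named, among them Matn2, which rose, Emilin1, which fell, Eln and Lamb2. The counts by domain can therefore miss genes. A calcium-binding EGF domain was named for 10 of the 39, the fibrillins, fibulins, nidogens and nephronectin. Of the 7 of these that were tested, 2 fell, Fbn1 and Fbln1, and 0 rose by limma with Benjamini-Hochberg adjustment, beside 10.6% lower and 1238 of 12341 higher among all tested genes. At an unadjusted p under 0.05, 3 were lower and 1, Nid1, was higher, without a matching share of all genes given here. With limma voom 2 were lower and 0 higher, beside 1273 lower and 1430 higher of all 12341 tested genes. The calcium-binding region of SPARC was named for 4 genes, and the 3 tested gave 3 outcomes, with Smoc1 higher, Smoc2 lower and Sparc not past the threshold. The fibronectin type III domain was named for Fn1, Fndc1, Tnc and Vwa1, of which Fn1 fell and Vwa1 rose.

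In a list of 18 other genes of elastic fibre assembly, 11 were tested, 1 rose and 2 fell, which is 27.3% where 20.7% of all tested genes were called. The crosslinking enzymes Loxl4 and Lox fell, from 24.3 ± 2.85 to 4.95 ± 0.457 FPKM and from 1249.6 ± 61.3 to 423 ± 41.9 FPKM (mean ± SD of 3 samples), and Adamtsl4, which supports fibrillin deposition, rose from 1.81 ± 0.291 to 3.66 ± 0.355 FPKM (mean ± SD of 3 samples). Loxl3 was at 19.3 ± 2.03 and 14.9 ± 2.12 FPKM (mean ± SD of 3 samples) and did not pass. Without WT medium replicate 3 the rises in this list numbered 4.

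Among 19 partners of laminin in the basement membrane, 12 were tested, 2 rose and 2 fell, which is 33.3% beside 20.7% of all tested genes. Dag1, dystroglycan, a laminin receptor, rose from 59.9 ± 5.35 to 129 ± 10.4 FPKM, and Itga6, an integrin chain that binds laminin, rose from 0.481 ± 0.116 to 2.69 ± 0.427 FPKM (mean ± SD of 3 samples). The muscle laminin integrin Itga7 fell from 3.24 ± 0.884 to 1.03 ± 0.0539 FPKM, and the basement membrane collagen Col18a1 fell from 30.5 ± 2.42 to 17.8 ± 3.13 FPKM (mean ± SD of 3 samples).

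Of 16 receptors and adaptors 15 were tested, 7 rose and 4 fell, which is 73.3% where 20.7% of all tested genes were called. Whether this share differs from that of their ligands was not tested. Itga8, whose integrin binds fibronectin and nephronectin, rose from 2.94, 2.93 and 4.28 FPKM to 45.0, 36.0 and 37.2 FPKM (log2 fold change 3.21 ± 0.15 SE, limma, BH-adjusted p = 1.9e-06). Its partner chain Itgb1 rose from 429 ± 17.3 to 843 ± 14.2 FPKM (mean ± SD of 3 samples). Among the beta chains that pair with integrin alpha V, Itgb5 rose from 7.98 ± 1.93 to 29.3 ± 4.42 FPKM (mean ± SD of 3 samples). Itgb3 fell from 24.6 ± 2.06 to 10.4 ± 0.724 FPKM and Itgb8 from 8.94 ± 0.964 to 3.81 ± 1.06 FPKM (mean ± SD of 3 samples). Itga5, the alpha chain of the main fibronectin receptor, had 94.3, 87.8 and 131 FPKM against 91.4, 90.0 and 101 FPKM and did not pass. Itga5 and Itgb8 were picked out with their values already known.

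**Figure D5:**
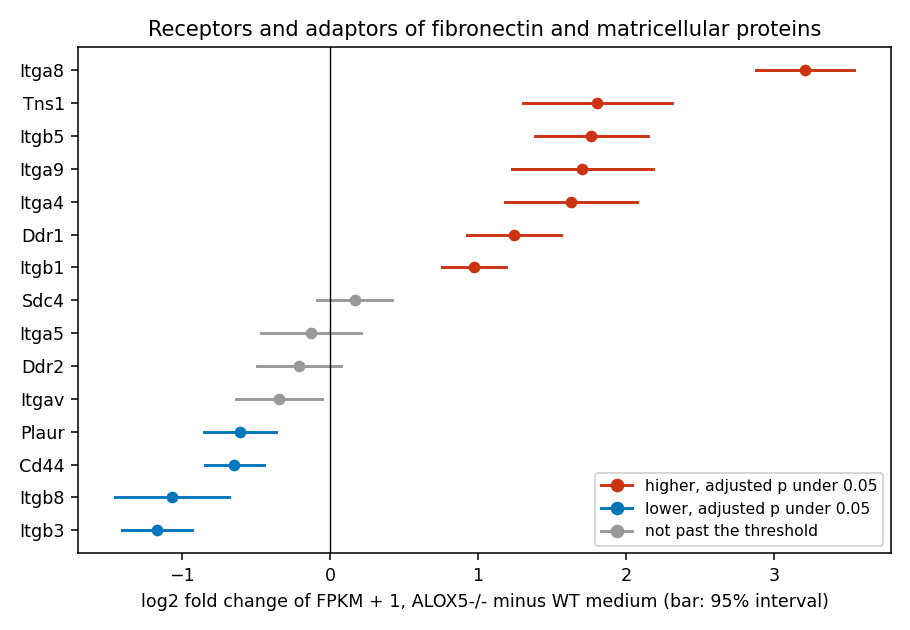
Log2 fold change of FPKM + 1 (horizontal axis) of the 15 tested receptor and adaptor genes; dots are estimates over 3 samples per group, bars 95% intervals. Itga8 stands farthest from 0 at 3.21, and Itgb3 has the lowest value at -1.17.

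Of 18 proteases and inhibitors that act on these glycoproteins, 14 were tested, 3 rose and 6 fell, which is 64.3% beside 20.7% of all tested genes. The gelatinase Mmp9 fell from 11.1 ± 3.28 to 0.841 ± 0.125 FPKM and Bmp1, a processing protease of matrix precursors, from 67.0 ± 2.77 to 31.9 ± 2.33 FPKM (mean ± SD of 3 samples). The inhibitors split, with Timp1 falling from 1044 ± 193 to 282 ± 39.1 FPKM and Timp3 rising from 1.98 ± 0.238 to 14.8 ± 4.06 FPKM (mean ± SD of 3 samples).

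Some transcripts listed as markers of other cell types moved with the medium too. Of 10 smooth muscle and pericyte markers 9 were tested, 6 rose and 2 fell (88.9%, beside 20.7% of all tested genes). The 10 summed to 1074 to 1143 FPKM in WT medium and 4926 to 6764 FPKM in ALOX5-/- medium. Nearly all of each sum was Acta2 and Tagln. The median of the 10 overlapped between groups, at 8.56 to 12.2 FPKM in WT medium and 11.3 to 13.1 FPKM in ALOX5-/- medium. The 2 that fell were Kcnj8 and Abcc9, at log2 fold changes of -1.83 and -0.85 (limma). The sum of the 7 epicardium and mesothelium markers was 33.5 to 39.6 and 26.3 to 32.1 FPKM. Of 4 tested, 1 fell, Msln (log2 fold change -1.67, limma, BH-adjusted p = 0.0052). The 8 mast cell markers summed to 43.4 to 61.3 and 22.2 to 32.2 FPKM, nearly all of it Cpa3 and Cma1, with Fcer1a, Ms4a2, Tpsb2 and Mcpt4 at 0 in every library. Of the 2 tested, Cpa3 fell (log2 fold change -1.18, limma, BH-adjusted p = 0.0017) and Cma1 did not pass. Endothelial markers summed to 4.44 to 6.54 and 2.74 to 3.67 FPKM, nearly all of it Tek, with Emcn and Cldn5 at 0. Tek itself fell (log2 fold change -0.56, limma, BH-adjusted p = 0.034). The sums of the leukocyte markers overlapped at 31.8 to 36.2 and 23.5 to 38.4 FPKM, nearly all of it Cd14 and Lyz2. Of 3 tested leukocyte markers 1, Cd14, fell (log2 fold change -0.41, limma, BH-adjusted p = 0.024), which the sum hides. Schwann cell marker sums also overlapped, at 38.5 to 53.5 and 40.8 to 53.9 FPKM. The red cell markers found in the table reached at most 0.0706 FPKM. The part of these lists in the changes of matrix glycoprotein genes was not tested.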

How the data were processed

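RNA was taken up in TRIzol and libraries were made with a NEBNext Ultra kit, per the labels' protocols. Per the submitters' processing notes, HISAT2 2.0.5, featureCounts 1.5.0-p3, fastp, CASAVA 1.8 and DESeq2 1.20.0 are named with no role, and the build named is mm10 of the mouse. The authors deposited FPKM values in 1 table that also lists each gene's length, per the file headers. Of its 33682 rows 32883 carry rat Ensembl identifiers and 0 mouse ones. Neither the rat build nor the use of strand in counting is stated in the sources used here, so overlapping and antisense genes are uncertain, and no sequence is printed because the reference at hand is mouse.

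FPKM times gene length was a whole multiple of 1 step per column for 100% of values above 0 (tolerance 0.05 reads), which gave the reads per library. The divisor behind the FPKM values was 0.990 (WT medium replicate 2) to 1.03 (ALOX5-/- medium replicate 2) times the sum of these reads, and its source is not stated. Of a gene of 1 kilobase, 3 reads are 0.185 to 0.228 FPKM, which bounds only the error of counting.

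Genes that averaged 1 FPKM or more over the 6 samples were tested on log2(FPKM + 1) with limma 3.58.1 in R 4.3.3 (trend, robust prior, two-sided, Benjamini-Hochberg at 0.05 over all 12341 genes). The fit was tested on simulated data. Alternatives were other pseudocounts (0.1, 0.5), filters (none, 5 FPKM) and scalings (TPM, median centring, quantile), no trend, a replicate block, each sample left out, and limma voom on the recovered reads. Each listed gene that passed, and Fn1, Eln, Fbn1, Postn, Sparc, Tnc, Spp1, Lamc1 and Nid1, are given per sample, and the up to 4 genes with the smallest p of each partner list are named. The genes and lists were chosen with earlier results of these data known. No pair of replicates was alike within sampling noise.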

Additional observations from a re-analysis of the deposited data

How the results depend on the processing

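The 9 called genes kept their direction in each of 16 alternatives that tested them (Smoc2 was filtered out at a mean of 5 FPKM), and 8 kept their call, the exception being Matn2 without ALOX5-/- medium replicate 3. With 1 sample left out the genes called over the whole table ran from 1653 (without WT medium replicate 1) to 2551, the rises in the list from 2 to 5, the falls from 6 to 7 and the median log2 fold change from -0.14 to 0.026. With limma voom on recovered reads, chosen after seeing the data, 3 rose and 6 fell, and 2703 genes of the whole table were called. At a mean of 5 FPKM 5 fell, and Adamtsl4, the 1 rise among elastic fibre assembly genes, and Itga6 and Itga7 were filtered out. With a replicate block the rises numbered 5 and the falls 7, adding Nid1 (limma, adjusted p = 0.045), Nid2 (adjusted p = 0.0032) and Lama4 (adjusted p = 0.014). Pairing by number was planned only as an alternative, since the labels do not say what a replicate number marks. In a later check the deviations of same-numbered samples correlated at -0.096, 0.10 and 0.17, and not every sample correlated best with its own number. Of the 22 genes that were not called 9 changed sign in some alternative, and 6 of the other 13 (Nid1, Nid2, Lama4, Lama2, Fbln5 and Cthrc1) passed the threshold in at least 1. With TPM scaling the log2 fold changes were 0.040 for Sparc, 0.042 for Postn, 0.0086 for Spp1 and 0.0099 for Emilin2, which was also the median of the list. Quantile normalization gave 0.11 for Postn, and voom 0.0066 for Sparc and 0.0093 for Postn. With 1 sample left out they ran from -0.095 to 0.046 (Sparc), -0.27 to 0.30 (Postn), -0.59 to 0.14 (Mgp), -0.050 to 0.21 (Fbln2), -0.19 to 0.073 (Lamb1), -0.30 to 0.31 (Spp1), -0.058 to 0.47 (Mfap5), -0.088 to 0.32 (Eln) and -0.15 to 0.15 (Emilin2). TPM scaling moved the split of all calls to 1365 higher and 1088 lower. The cause of these shifts was not tested. Depth limits what can be said of most of the 8 genes under the filter. Fbn2, at 181 and 308 reads over the libraries of the WT and ALOX5-/- medium groups, fell under it by FPKM at a length of 7808 bases.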
